A study of Gallus gallus with 4 samples.

Results

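Ion channels and aquaporins are the membrane proteins through which ions and water pass into and out of cells and organelles. HIF1α-DNA binding complexes next to their genes were examined in primary lens cells. Members were the peaks in the deposited HIF1α list whose nearest gene symbol began with 1 of 24 channel or receptor prefixes, from the potassium channel prefix KCN to the purinergic receptor prefix P2RX, at any distance. The rule used gene names alone and set no limit on peak height, enrichment or distance. The names are those of the nearest genes, so the position of a peak decides which symbol it carries. The rule selected 182 of the 8375 listed peaks, nearest to 87 gene symbols, and these are called channel peaks and channel genes here. The prefixes also took 4 genes that do not encode channels, ANOS1, ITPRID2, ITPRIP and ITPRIPL2, with 9 peaks, and the metabotropic glutamate receptors, which are G protein-coupled. CLCN4 and CLCN7, which encode exchangers, are kept among the channel genes.

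The lens has no blood vessels, and ions and water circulate through it. Sodium pumps, potassium channels, gap junctions and aquaporins of the epithelial and fiber cells carry this flow, and loss of calcium or volume balance clouds the tissue. HIF1α is a transcription factor that is degraded when oxygen is present and binds DNA with its partner ARNT when oxygen falls. In other tissues several channels take part in oxygen sensing and in the response to low oxygen.

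Binding was mapped by CUT&RUN. In this assay a nuclease is tethered by an antibody to its target protein in permeabilized cells, and the short DNA fragments that it cuts free are sequenced. The cells were cultured from the lenses of White Leghorn chick embryos at embryonic day 10, and all were treated with 1 mM dimethyloxalylglycine (DMOG) for 4 h, which blocks the prolyl hydroxylases that mark HIF1α for degradation. There were 2 pools of 500000 cells, each shared out to a HIF1α antibody and a control IgG, which gave 2 HIF1α and 2 IgG libraries. No untreated library was included, and the cell identity cannot be checked against marker genes with a list of peaks. The authors pooled the libraries of each antibody before peak calling, so each peak has 1 value without a replicate error, and intervals below cover counting error only.

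Each peak is described by its pileup, the count of HIF1α fragments stacked at the summit, and by its background, which is the larger of the scaled IgG signal and the genome-wide level. Fold enrichment is (pileup + 1)/(background + 1). The −log10 q is that of the peak caller's Poisson test of HIF1α over this background, the only test behind a peak, and every listed peak has a q under 0.05. The lowest background in the list was 1.297 fragments, and a peak with a background over 3 times this floor is said to have high IgG background. The distance is the deposited number of bp to the nearest transcription start site (TSS). The gene at that TSS may not be the gene that a bound site acts on, and exons and introns at the peaks were not analysed here. Positions are on galGal6.

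Channel peaks lay farther from a TSS than the list as a whole. Their median distance was 49512 bp (95% confidence interval 40016 to 57832), compared with 23632 bp (22627 to 24831) over all listed peaks, and these intervals did not overlap. Within 3 kb of a TSS there were 16 of 182 channel peaks (8.79%, Wilson 95% confidence interval 5.48 to 13.8), where 13.0% of all peaks were. This interval includes the share of the list, and within 1 kb the shares were close, at 6.04% against 6.28%. Within 10 kb there were 39 (21.4%, 16.1 to 27.9), against 30.8% of all peaks. Beyond 100 kb there were 46 (25.3%, 19.5 to 32.1), against 17.1%. The farthest was a peak 517470 bp from the TSS of KCNC2, a potassium channel gene of fast-firing neurons. Peaks of 1 gene are not independent, and these shares were compared by their intervals without a test.

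**Figure D1:**
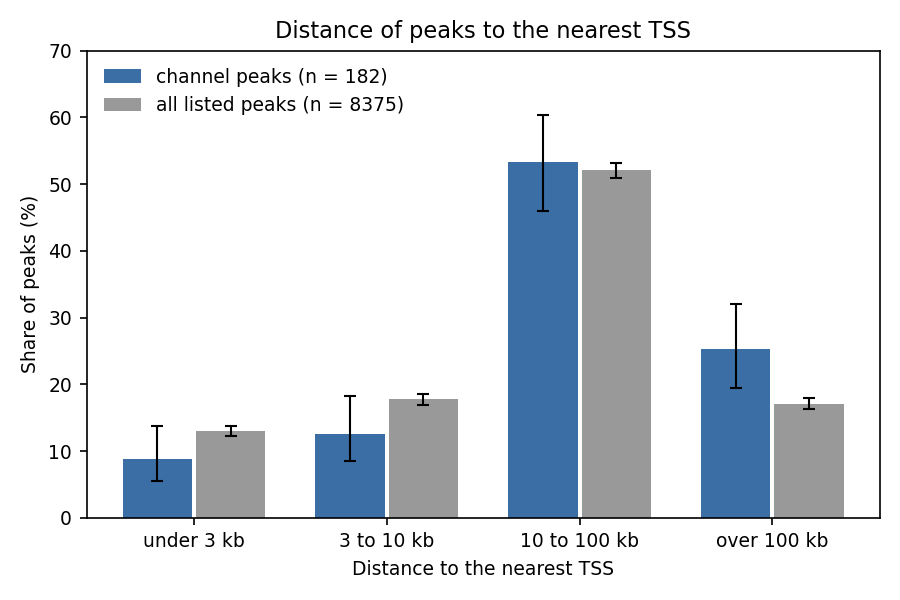
Share of peaks (%) by distance to the nearest TSS, for the 182 channel peaks (blue) and all 8375 listed peaks (grey), with Wilson 95% confidence intervals as error bars. Channel peaks are fewer within 10 kb (21.4% against 30.8%) and more numerous beyond 100 kb (25.3% against 17.1%).

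In strength the channel peaks were close to the list. The median fold enrichment was 3.97 (95% confidence interval 3.92 to 4.14), compared with 3.92 (3.92 to 3.95) for all peaks. A pileup of 7 to 9 fragments was found at 120 channel peaks (65.9%, 58.8 to 72.4), against 58.9% of the list. A −log10 q of at least 2 was reached by 93 (51.1%, 43.9 to 58.3), against 55.4% of the list, and one of at least 3 by 40 (22.0%, 16.6 to 28.5), against 26.5%. A fold enrichment of at least 5 was found at 22 (12.1%, 8.12 to 17.6), against 11.2%. The floor set the background of 103 channel peaks (56.6%, 49.3 to 63.6), against 49.7%, so that their enrichments differ by pileup alone. High IgG background was found at 4 channel peaks (2.20%, 0.858 to 5.51), against 7.94% of the list. Because heights are small whole numbers, values were tied in blocks, and 48 channel peaks shared a −log10 q of 1.81.

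**Figure D2:**
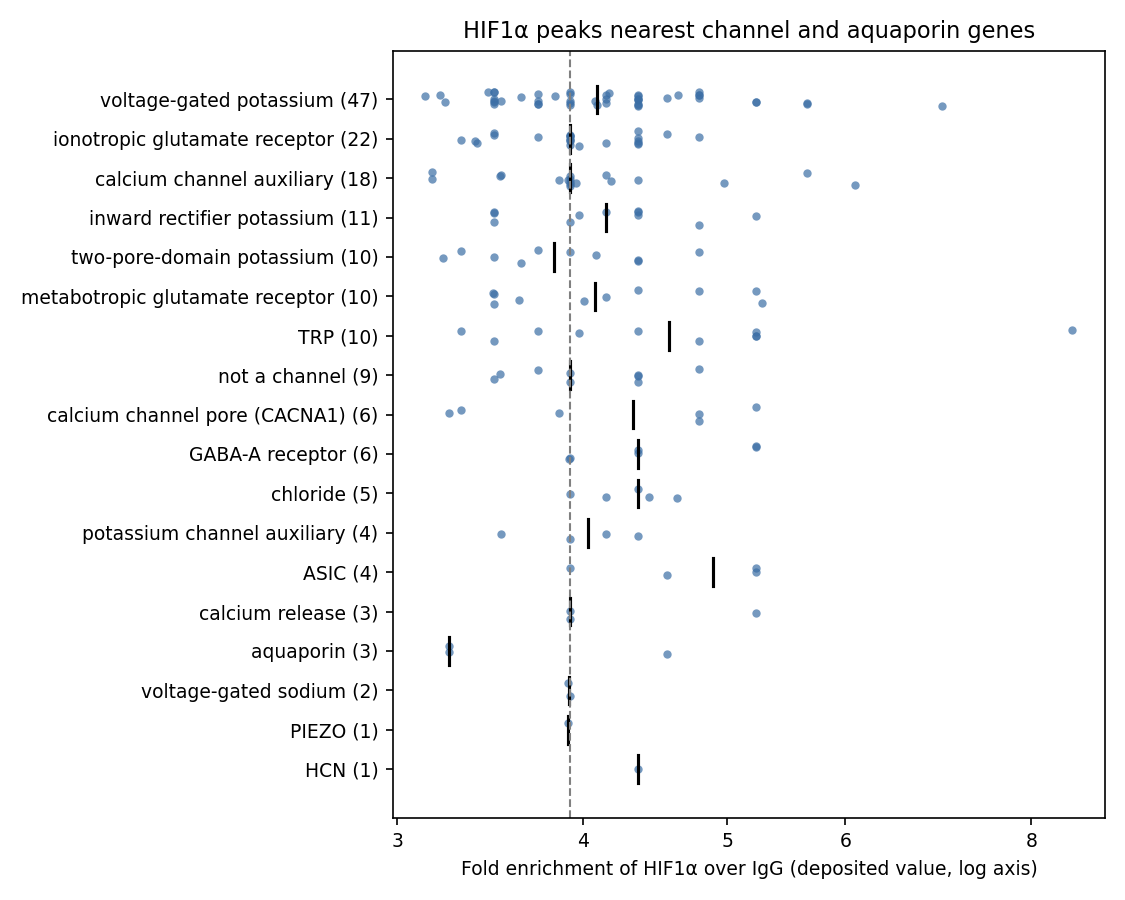
Fold enrichment of HIF1α over the background (log axis, labelled over IgG) of each of 172 channel peaks by class of gene, with the number plotted in brackets. A black bar marks the median of the plotted peaks of each class and a dashed line the median of all listed peaks (3.92). Most points lie between 3 and 6, and the highest is a TRPC7 peak at 8.53.

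Of the channel peaks described here, the highest by −log10 q stood on high IgG background. The TRPC7 peak on chromosome 13 (15591755 to 15592228), 104564 bp away from the TSS, had 294 fragments over a background of 33.6 and a fold enrichment of 8.53 (7.58 to 9.56), with −log10 q at 160. TRPC7 forms cation channels opened by diacylglycerol. The GRM8 peak at 62622 bp had 95 fragments over 23.0 and a fold enrichment of 4.00 (3.25 to 4.88). The GRM3 peak at 192027 bp had 64 fragments over 11.3 and a fold enrichment of 5.28, and the KCNV1 peak at 324212 bp had 65 over 15.2 and a fold enrichment of 4.07. These 4 were the only channel peaks with high IgG background, with a −log10 q between 16.6 and 160. Whether the IgG signal has a part in these peaks was not tested.

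**Figure D3:**
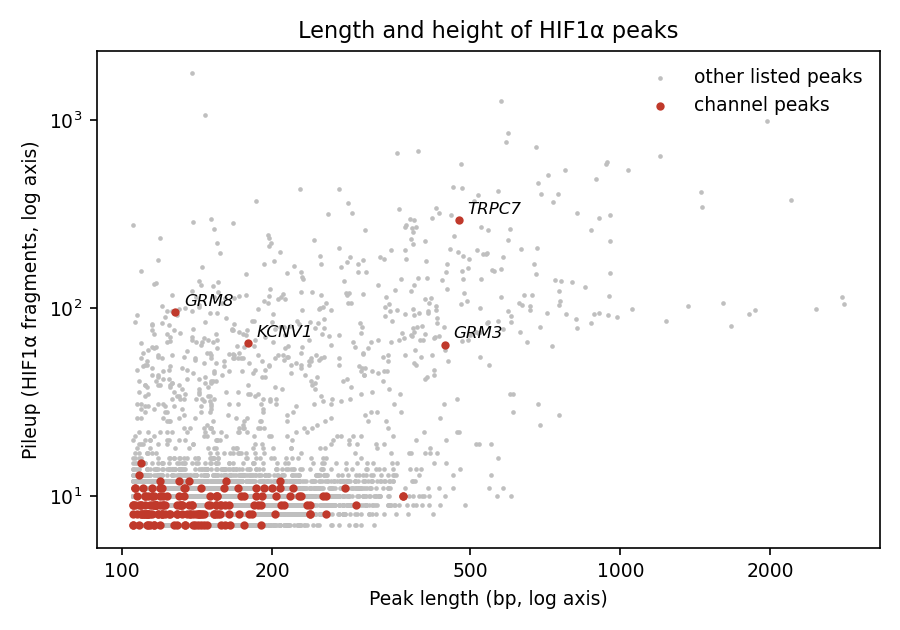
Pileup in HIF1α fragments against peak length in bp (both log axes) for 172 channel peaks (red) and the listed peaks of other genes (grey), with channel peaks of at least 50 fragments named. The TRPC7 peak stands highest of those named, with 294 fragments over 474 bp, and most channel peaks lie at the low end of the range.

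Below them, fragments were few and the intervals wide. The highest of the KCND2 peaks, on chromosome 1 (23969769 to 23969877) and 43457 bp away from the TSS, had 15 fragments and a fold enrichment of 6.96 (4.09 to 11.2). A CACNB4 peak on chromosome 7 (35406702 to 35406809), at 4972 bp, had 13 fragments and a fold enrichment of 6.09 (3.45 to 10.1). Peaks nearest to KCNC1, KCNQ1 and CACNA2D1 each had 12 fragments and a fold enrichment of 5.66 (3.13 to 9.56). The intervals of these 5 peaks overlap, so their order is not resolved at this depth. The CACNA2D1 peak, on chromosome 1 (10549654 to 10549815), lay 3058 bp from the TSS, just beyond the promoter-proximal limit of 3 kb.

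Promoter-proximal binding involved 14 channel genes with 16 peaks within 3 kb. All 16 had 7 to 11 fragments, and 5 of them reached a −log10 q of at least 3. The highest by −log10 q were those of TRPM7 and TRPM1, at 3.88. TRPM7 encodes a channel fused to a kinase that admits magnesium and calcium and is present in most cells. Its peak on chromosome 10 (11241656 to 11241765) was 231 bp away from the TSS, with 11 fragments (exact Poisson 5.49 to 19.7) and a fold enrichment of 5.22. TRPM1, a channel of retinal bipolar cells, had peaks at 2697 and 2456 bp with fold enrichments of 5.22 and 4.79. These peaks also carried the symbol MTMR10 and cannot be assigned to TRPM1 alone.

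CLCN7, which encodes a chloride-proton exchanger of lysosomes, was the only channel gene outside the shared TRPM1 locus with more than 1 promoter-proximal peak. One of its peaks, on chromosome 14 (12701608 to 12701887), was 45 bp away from a TSS, with 11 fragments and a fold enrichment of 4.62, with −log10 q at 3.08. The other (12700987 to 12701132) was 412 bp away from the TSS of another transcript, with 8 fragments and a fold enrichment of 3.92. The gap between them was 475 bp. KCNK2, a potassium channel that responds to membrane stretch, had a peak at 1083 bp on chromosome 3 (21010769 to 21010887), with 10 fragments and a fold enrichment of 4.79, with −log10 q at 3.07.

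A TSS was covered by a peak at 1 channel gene. KCNG1 encodes a modulatory subunit that forms no channel alone. Its peak on chromosome 20 (13362361 to 13362589) had 10 fragments and a fold enrichment of 4.56, with −log10 q at 2.87 and the summit 112 bp from the TSS. The AQP8 peak on chromosome 14 (7038076 to 7038442) had the same values at 357 bp. AQP8 is a water channel that also passes hydrogen peroxide.

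The other promoter-proximal peaks had a −log10 q of 2.38 or less. Those of KCNH4 at 763 bp, KCNAB2 at 1526 bp and CACNB4 at 495 bp shared a −log10 q of 2.38, and the KCNH4 peak also carried the symbol RAB5C. CACNG3 at 644 bp and KCNQ5 at 771 bp had 9 fragments each and a fold enrichment of 4.14. SCN11A at 151 bp and KCNAB1 at 1515 bp had 8 fragments and a fold enrichment of 3.92. The weakest was that of KCNF1 at 972 bp, with 7 fragments and a fold enrichment of 3.48, with −log10 q at 1.38. Apart from CACNG3 and the shared symbol RAB5C, these genes encode subunits of voltage-gated channels.

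To ask how much of each family was reached, channel genes were counted in a table of 14357 protein-coding chicken genes with a symbol. Of 237 channel genes in the table, 84 (35.4%, 95% confidence interval 29.6 to 41.7) were nearest to a listed peak, compared with 24.9% of all genes in the table. Within 3 kb the share was 14 of 237 (5.91%, 3.55 to 9.67), close to the 5.33% of all genes. The list symbols KCND1, KCNK1 and ITPRID2 had no current entry in the table and are not in these counts. A gene named differently in the list counts as without a peak, which may lower the 24.9%. How many other list symbols lack an entry is not given here.

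**Figure D4:**
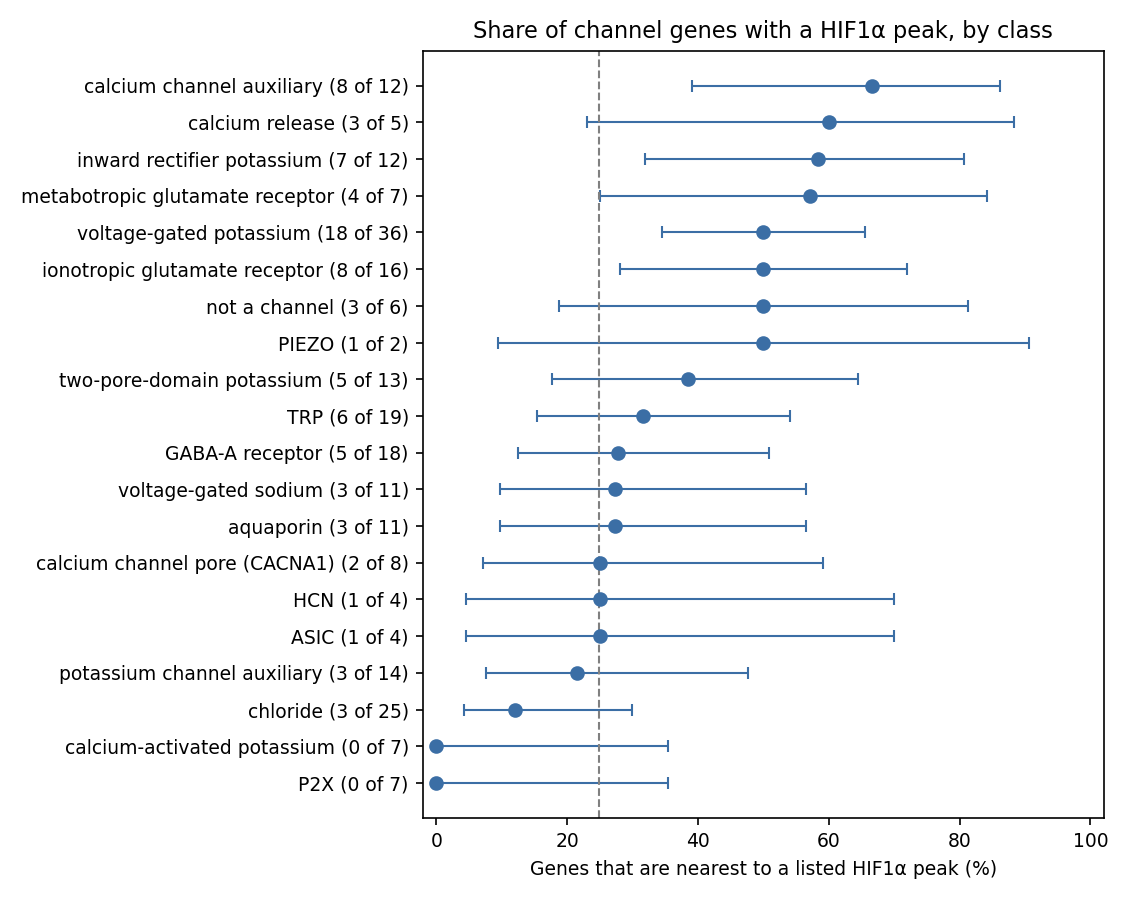
Share of the genes of each class that are nearest to a listed HIF1α peak (%), with Wilson 95% confidence intervals and the share of all protein-coding genes with a symbol (24.9%) as a dashed line. Classes were assigned by gene symbol. The class labelled calcium channel auxiliary, which holds the CACNA2D, CACNB and CACNG prefixes, stands highest with 8 of 12 genes. In the class labelled calcium-activated potassium, which holds the KCNMA, KCNN, KCNT and KCNU prefixes, 0 of 7 genes have a peak. Of the P2X genes, 0 of 7 have a peak. With 7 genes each, the intervals of these classes (0 to 35.4) include the share of all genes.

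Potassium channels made up the largest family, with 73 peaks and 35 genes. Voltage-gated subunits, from channels that repolarize the membrane, accounted for 48 peaks nearest to 19 genes. Of their 36 genes in the table, 18 (50.0%, 34.5 to 65.5) had a peak, against 24.9% of all genes. The median distance of the 48 peaks was 80353 bp and their median fold enrichment 4.11.

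Among the voltage-gated subunits, KCNQ1 had 6 peaks. KCNQ5, a subunit of the M-current channel, had 5 at 771 to 115069 bp with 7 to 9 fragments. KCNA4, which encodes a rapidly inactivating channel, had 4 peaks at 74668 to 126788 bp with 9 or 10 fragments, and KCNA5 had 1 at 18125 bp. Modulatory subunits that do not form channels alone, from the KCNF, KCNG, KCNS and KCNV prefixes, had peaks at 6 of these genes. KCNG1 and KCNV1 had 3 each, KCNG2, KCNF1 and KCNS3 had a pair each, and KCNG4 had 1. In the ether-a-go-go family, KCNH5 and KCNH7 had a pair each between 104652 and 207203 bp, and KCNH8 had 1 at 33025 bp with 10 fragments and a fold enrichment of 4.79. All fold enrichments of these genes lay between 3.13 and 5.66.

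Inward rectifiers, which hold the resting potential, had 11 peaks at 7 genes. KCNJ2 had 3 of these at 93922 to 203777 bp, and KCNJ11, the pore of the ATP-sensitive channel, had 1 at 20318 bp with 7 fragments. KCNJ5, a G protein-gated subunit, had the nearest, at 3580 bp with a fold enrichment of 4.35. Leak channels of the KCNK prefix had 10 peaks at 6 genes, with fold enrichments between 3.22 and 4.79. Auxiliary subunits had 4 peaks, at KCNAB1, KCNAB2 and KCNIP1. None of the 7 potassium channel genes of the KCNMA, KCNN, KCNT and KCNU prefixes in the table had a peak. The interval of this share (0 to 35.4) includes the 24.9% of all genes.

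Among genes of the CACN prefix, those classed by symbol as auxiliary subunits carried more peaks than the pores. They had 18 peaks at 8 of 12 genes (66.7%, 39.1 to 86.2), against 6 peaks at 2 of 8 genes (25.0%, 7.15 to 59.1). These intervals overlap, so a difference in the share of genes is not resolved. The share of the pores was close to the 24.9% of all genes in the table. Of the 6 pore peaks, 5 were nearest to CACNA1C. The auxiliary class includes CACNG3, which is excepted above from the subunits of voltage-gated channels. Whether the other CACNG genes encode calcium channel subunits was not examined. CACNA1C, the pore of an L-type channel, was nearest to 5 peaks at 21616 to 189397 bp with fold enrichments from 3.25 to 5.22, and CACNA1H, a T-type pore, to 1 peak at 57745 bp with 7 fragments. CACNA2D1 had 5 peaks, CACNA2D3, CACNB2 and CACNB4 had 3 each, and CACNA2D2, CACNG1, CACNG3 and CACNG5 had 1 each. Calcium release channels of the endoplasmic reticulum had 3 peaks. The ITPR1 peak, on chromosome 12 (18853193 to 18853298) and 39643 bp from the TSS, had 11 fragments and a fold enrichment of 5.22, whereas RYR2 and RYR3 had 8 fragments and a fold enrichment of 3.92 at 66509 and 57140 bp.

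Sodium and pacemaker channels start and pace electrical activity. SCN2A at 3128 bp and SCN11A at 151 bp had 8 fragments each. HCN2, a pacemaker channel, had 1 peak at 3869 bp with 9 fragments.

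Receptor channels of the nervous system and the metabotropic receptors contributed many distal peaks and none within 3 kb. The intervals of their shares of genes with a peak within 3 kb start at 0. They reach 19.4% for ionotropic glutamate receptors, 17.6% for GABA receptors, 49.0% for the ASIC genes and 35.4% for metabotropic receptors. All include the 5.33% of all genes in the table, so a lower share of genes is not resolved. Counted by peaks, the interval for ionotropic glutamate receptors (0 to 12.1%) lies below the 13.0% of all listed peaks. Those for GABA receptors, ASIC and metabotropic receptors reach 39.0%, 49.0% and 25.9% and include it. Peaks of 1 gene are not independent, so intervals by peaks are too narrow, and no test was made. Ionotropic glutamate receptors had 28 peaks at 8 of 16 genes (50.0%, 28.0 to 72.0), against 24.9% of all genes in the table. The peaks had a median distance of 54231 bp and a median fold enrichment of 3.92. Of these 28 peaks, 17 (60.7%) also carried another, unnamed gene identifier and cannot be assigned to a receptor alone, where 6.97% of the list carried more than 1 symbol. They include the 6 peaks of GRID1, a delta receptor, and those of the AMPA receptor genes GRIA3 and GRIA4. The highest GRIA4 peak, on chromosome 1 (182654619 to 182654985) and 63898 bp away from the TSS, had 10 fragments and a fold enrichment of 4.56. GRIK2, a kainate receptor gene, had 1 peak at 8755 bp with 8 fragments. GRIN2B and GRIN2A, subunits of NMDA receptors, had 5 and 4. Receptors for GABA had 6 peaks at 5 of 18 genes (27.8%, 12.5 to 50.9), close to the 24.9% of all genes. GABRG1 and GABRR1 reached 11 fragments and a fold enrichment of 5.22, at 34787 and 22785 bp. ASIC2, an acid-sensing channel, had 4 peaks at 38048 to 100176 bp, of which the strongest pair had 11 fragments. Of the metabotropic receptors, GRM7 had 5 peaks, GRM3 had 3 and GRM8 had 2.

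Aquaporins had 3 peaks at 3 of 11 genes (27.3%, 9.75 to 56.6), close to the 24.9% of all genes in the table. Besides AQP8, the AQP1 peak was on chromosome 2 (1172707 to 1172835), 13335 bp from the TSS, and the AQP4 peak on the same chromosome (104437473 to 104437577), 9513 bp from the TSS. Both had 8 fragments over a background of 1.77 and a fold enrichment of 3.25, with −log10 q at 1.38, near the weakest in the list. AQP1 is the water channel of the lens epithelium.

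Channels of the TRP families other than those above included TRPM3, which is mutated in some families with cataract in humans. It had a pair of peaks on chromosome Z at 62163 and 64336 bp with 11 and 8 fragments, which also carried the symbol of a microRNA, gga-mir-204-1. TRPM6, a magnesium channel, had a peak on Z at 50359 bp with 7 fragments. Over all TRP genes there were 11 peaks at 6 of 19 genes (31.6%, 15.4 to 54.0). This interval includes the 24.9% of all genes in the table. The 11 peaks had a median fold enrichment of 4.79 and a median distance of 16559 bp. The 5 TRPV genes and TRPA1 had no listed peak. With so few genes, the intervals of these shares reach 43.4% and 79.3% and include the share of all genes. PIEZO2, a touch channel, had 1 peak at 13583 bp with 9 fragments and a fold enrichment of 3.91, and PIEZO1 had none.

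The class labelled chloride, assigned by symbol from the CLCN, CLIC, ANO and LRRC8 prefixes, had the smallest share among classes with more than 7 genes. A peak was found at 3 of its 25 genes (12.0%, 4.17 to 30.0). This interval includes the 24.9% of all genes in the table, so a lower share is not resolved. Besides CLCN7, an exchanger, the genes of this class with a peak were CLCN4 and ANO10. Whether ANO10 encodes a chloride channel was not examined. CLCN4 is an exchanger of endosomes, and its peaks at 19426 and 93456 bp also carried the symbol WWC3. ANO10 had 9 fragments at 65304 bp. No listed peak was nearest to the 5 CLIC genes, the 3 LRRC8 genes, which form volume-regulated anion channels, or the 7 P2RX genes of the table. With so few genes, the intervals of these shares reach 43.4%, 56.1% and 35.4% and include the share of all genes. The lowest pileup in the list was 7 fragments, and weaker binding was not detectable at this depth.

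Several channel genes were nearest to a series of peaks. Of the 87 channel genes, 44 (50.6%, 40.3 to 60.8) were nearest to at least 2 peaks, where 36.2% of all gene symbols in the list were, and 10 (11.5%) to at least 5, where 3.80% were. KCND2, KCNQ1 and GRID1 had 6 peaks each. ANOS1, CACNA1C, CACNA2D1, GRIN2B, GRM7 and KCNQ5 had 5. The 6 peaks of KCND2, which encodes the pore of a transient potassium current, spanned 324 kb of chromosome 1, with 7 to 15 fragments and fold enrichments from 3.20 to 6.96.

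The deposited distances fix where a TSS lies when 2 or more peaks share a transcript, and this placed 121 channel peaks on the lower or the higher side of the TSS along the chromosome. KCNQ1, a potassium channel gene of heart and epithelia, had all 6 peaks on the lower side. They lay in 95.4 kb of chromosome 5 at distances of 59679 to 154945 bp, with fold enrichments from 3.48 to 5.66. The 5 peaks of CACNA1C lay on the higher side, at 21.7 to 189.4 kb. Of 17 genes with at least 3 peaks, all of them placed, 9 had every peak on the same side. The same count was not made over the other listed genes, so it cannot be called a trait of channel genes. The strand of each gene was not used here, so a side is not upstream or downstream.

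**Figure D5:**
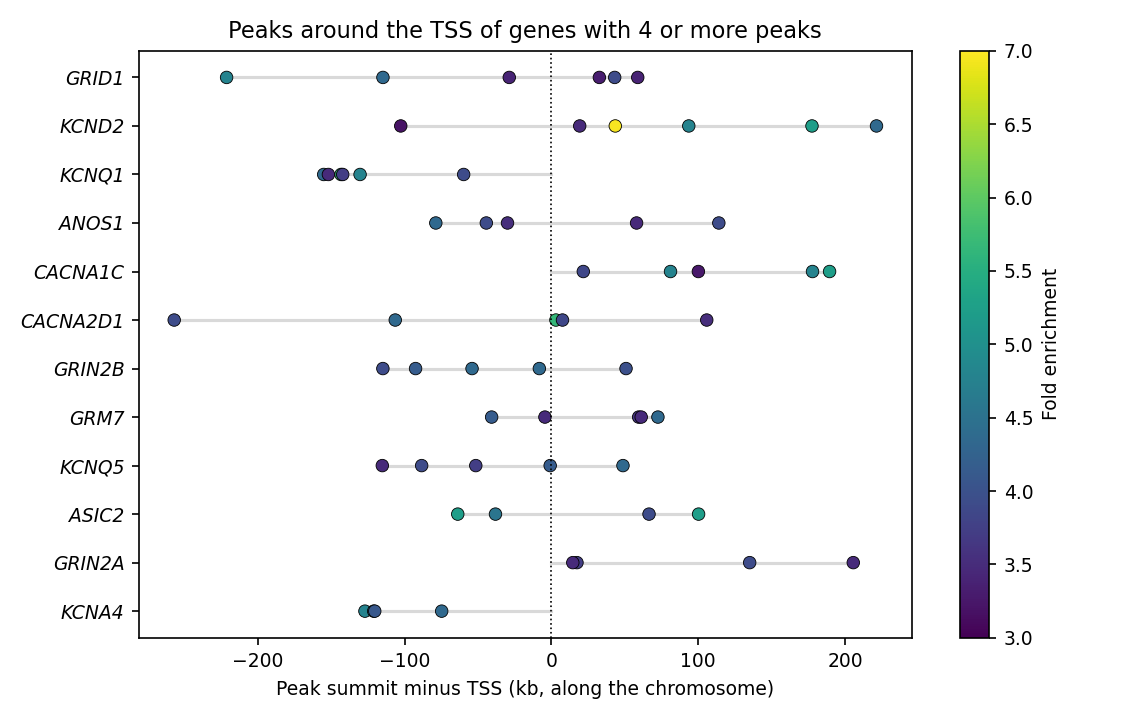
Position of each peak summit relative to the TSS (kb along the chromosome, TSS at 0) for 12 channel genes with at least 4 peaks, coloured by fold enrichment. For genes with several transcripts the TSS is that with the most peaks. All peaks of KCNQ1 and KCNA4 lie on the lower side, all of CACNA1C and GRIN2A on the higher side, and those of KCND2 on both.

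Some peaks of channel genes lay side by side. Pairs of peaks of 1 gene within 1 kb were found at CLCN7, GRIA3, ITPRID2 and KCNA4, with gaps of 475, 145, 414 and 679 bp. In all, 8 channel peaks (4.40%, 2.24 to 8.43) had another listed peak within 1 kb, against 5.53% of the list. Neighbouring channel genes had peaks within 250 kb of each other in 9 pairs, which involved 15 genes. Such pairs were not counted over the other listed genes, so they cannot be called a trait of channel genes. KCNK16, KCNK17 and KCNK5 lay in sequence on chromosome 3, with peaks from 29196479 to 29341173. On chromosome 18 the peaks of CACNG1 and CACNG5 were 136 kb apart and those of KCNJ16 and KCNJ2 203 kb. On chromosome 1 the peaks of KCNJ6 and KCNJ15 were 10.3 kb apart.

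The symbols that are not channels had 9 peaks, none within 3 kb, of which 8 had 7 to 9 fragments and 1 reached a −log10 q of at least 3. ANOS1, which encodes the matrix protein anosmin-1, had 5 peaks at 29805 to 113826 bp with 7 to 9 fragments. ITPRIPL2 at 3189 bp had 10 fragments and a fold enrichment of 4.78, ITPRIP at 4371 bp had 9 fragments, and the ITPRID2 peaks at 28891 and 29415 bp had 8 and 9. Without these symbols and the metabotropic receptors, 162 peaks and 79 genes were left, with the same median fold enrichment of 3.97.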

How the data were processed

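CUT&RUN libraries of DMOG-treated chick lens cells were grouped by sample title. The authors trimmed reads with Trimmomatic, aligned them with Bowtie2 to galGal6 (Ensembl 96), kept fragments under 120 bp with SAMtools, and called narrow peaks with MACS2 at a q of 0.05 on pooled HIF1α against pooled IgG libraries. Tool versions are not given in the sources used here. The pileup is deposited as a signal, which the study's supplement describes as scaled to library size (RPM). Its values are whole numbers, and with their background they return the deposited −log10 p within 0.00165 when read as fragments, so they are called fragments here. The fold enrichment is deposited as a ratio, and the −log10 p and −log10 q values are the authors' MACS2 output. Nearest TSS, distance and symbol are also the authors'. Columns belonging to a single library numbered 0, so depth per library is unknown.

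The background was computed as (pileup + 1)/fold enrichment − 1. Shares have Wilson 95% intervals, medians have intervals from binomial ranks, and pileups exact Poisson intervals (Python 3.11.15, SciPy 1.17.1, pandas 2.3.3). Steps were tested on simulated data. Gene names came from the NCBI RefSeq table of GRCg7b, matched by current symbol. Of 87 channel symbols 84 matched, and KCND1 is there an older symbol of KCND3. None of its coordinates was used. No set test was made. Members, lists and alternatives were chosen with earlier results of these data known. Peaks were named by rule: those within 3 kb, the 10 with the highest −log10 q, the 5 most enriched, the top peak of each family, the genes with the most peaks, every AQP, TRPV, PIEZO, LRRC8, CLIC, ANO, P2RX, ASIC, RYR and ITPR member with a peak, and symbols that are not channels. Other genes were named after their values were seen, to fill out a family. The values of 5 channel genes with 10 peaks are not reported here and are left out of the plots of single peaks, while counts and medians over all channel peaks include them.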

Additional observations from a re-analysis of the deposited data

How the results depend on the processing

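Alternatives were stricter thresholds, merging of peaks, removal of high IgG background, of shared peaks or of symbols that are not channels, other promoter distances and, added after seeing the data, removal of 1 peak. Of 67 values, 58 stayed within 1.5 times a count or within the interval of a share or median. Some of these could not change. A limit of 3 for fold enrichment removed no channel peak, since the lowest was 3.09, and merging peaks of a gene keeps the number of genes. At a −log10 q of at least 2, 93 peaks were left with a median fold enrichment of 4.35. Of these, 12.9% (7.54 to 21.2) lay within 3 kb and 25.8% (18.0 to 35.5) within 10 kb. Their median distance was 49261 bp. The shares of all listed peaks at this limit are not given here. Under a limit of 3 for −log10 q, 40 peaks, 30 genes and 4 genes with a peak within 3 kb were left, with a median fold enrichment of 5.22 and high IgG background at 10.0%. These follow from the threshold. With 5 kb in place of 3 kb, 14.8% of channel peaks and 23 genes were promoter-proximal. Of the channel peaks, 120 had 7 to 9 fragments, and how the list changes with depth was not tested. No paired analysis was possible because the peaks were called on pooled libraries and no column carries a replicate number, and for the same reason no library could be left out.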

Other observations

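Ion, water and gap junction transport genes of the lens outside the prefixes were examined as a list of 32 genes, of which 15 were nearest to 46 listed peaks. Of the 27 genes in the gene table, 14 were nearest to a listed peak, where 24.9% of all its genes were, and 4 had a peak within 3 kb, where 5.33% did. The list was chosen with earlier results known, and these counts were not tested. STIM2, a calcium sensor of the endoplasmic reticulum, had 7 peaks, of which 1 covered its TSS with 10 fragments and a fold enrichment of 3.16. STIM1, another such sensor, had peaks at 1614 and 2051 bp, and the chloride channel gene CFTR had 1 at 932 bp with 9 fragments. The connexin genes GJA1 and GJA3 had 5 peaks and 1 peak, the nearest at 9167 and 24982 bp. The nearest GJA1 peak had 89 fragments over a high IgG background of 25.1.

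The sodium leak channel NALCN had a peak at 47902 bp on chromosome 1 with 25 fragments and a fold enrichment of 8.33, with −log10 q at 14.4. ATP2B1, a calcium pump gene, had 14 peaks, of which 6 had high IgG background and fold enrichments from 1.49 to 2.08. TPCN1, an endolysosomal channel gene, had 7, of which 6 had high IgG background. ATP1B1, a sodium pump subunit, had 1 peak at 13197 bp with 12 fragments and a fold enrichment of 5.66. No listed peak was nearest to MIP, the main water channel of lens fiber cells.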
